A study of Saccharomyces cerevisiae with 4 samples.

Results

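The reading frames of the Ty retrotransposons of Saccharomyces cerevisiae were described across 4 RNA sequencing libraries. They are 45 of the 7126 rows of the deposited table, chosen by systematic name as gag or gag-pol frames of Ty1, Ty2, Ty3 and Ty4. All 45 names were found in the table and in the R64 RefSeq annotation, whose mobile elements assigned 33 of them to Ty1, 8 to Ty2, 2 to Ty3 and 2 to Ty4. Of the 45 frames, 41 joined gag and pol, 2 held gag alone (YAR010C and YLR256W-A) and 2 held the Pol part alone (YAR009C and YLR035C-A). YLR035C-A lies in no annotated element and is counted here with Ty1, since 95.6% of its 50-base words occur in Ty1 frames.

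Poly(A) RNA was sequenced from the haploid mating type a strain BY4741, grown on glucose in synthetic medium lacking leucine and uracil until the optical density had gone from 0.1 to 0.4. Every library carried CRISPR interference, in which a catalytically dead Cas9 is led to a site by a guide RNA and blocks transcription there. In the scrambled group (libraries A and B) the guide had a scrambled sequence, and in the +116 group (libraries A and B) it was the guide against the noncoding RNA of GAL10. The series' text speaks of 2 strains per guide and says no more of how the cultures were started. Each p-value below thus refers to the spread between these libraries, which the fit over all genes moderated by the spread of other genes. The comparison of the guides is the one the design gives, and no element is its target.

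Ty elements are retrotransposons with long terminal repeats. RNA polymerase II copies an element into a full-length RNA, which is both the messenger for its proteins and the template for new DNA copies. The gag frame encodes the coat protein that assembles into virus-like particles. The pol frame encodes protease, integrase, reverse transcriptase and RNase H, and it is read only when ribosomes slip forward out of gag. Ty1, Ty2 and Ty4 are copia-type elements and Ty3 is gypsy-type. All of them insert mainly next to genes transcribed by RNA polymerase III, and transfer RNA genes neighboured 37 of the 45 frames in the R64 gene order, among them 26 of the Ty1 and 7 of the Ty2 frames.

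The slip happens at a short heptamer, which Ty1, Ty2 and Ty4 share and which differs in Ty3. The stretches below are from RefSeq R64, given 5′ to 3′ on the strand of the frame, with the heptamer in capitals and 24 bases on either side. YER138C lies on chromosome V on the reverse strand, YBL100W-B on chromosome II, YHL009W-B on chromosome VIII and YGR109W-B on chromosome VII, each on the forward strand. They stand for Ty1, Ty2, Ty4 and Ty3 in this order.
YER138C: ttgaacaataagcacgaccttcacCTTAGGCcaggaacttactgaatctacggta
YBL100W-B: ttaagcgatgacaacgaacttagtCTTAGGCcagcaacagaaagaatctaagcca
YHL009W-B: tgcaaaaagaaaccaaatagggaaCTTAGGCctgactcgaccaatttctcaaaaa
YGR109W-B: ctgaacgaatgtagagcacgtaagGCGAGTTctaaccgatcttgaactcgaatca
The heptamer was sought within 24 bases of the join of the 2 coding blocks in R64. CTTAGGC was found there in 29 of 29 joined Ty1 frames, 8 of 8 Ty2 frames and 2 of 2 Ty4 frames. GCGAGTT was found there in 2 of 2 Ty3 frames. The join is where the annotation places the slip, so these counts describe the annotation and are no separate test. The search was on the coding strand alone. In windows of 55 bases over nuclear coding genes other than the Ty rows, CTTAGGC occurred in 0.07064% and GCGAGTT in 0.1249% of 152890 windows.

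Sequence shared between copies bears on every value that follows. A 50-base word of a Ty1 frame occurred at a median of 21.7 places in the genome (13.1 to 25.6 over the 33 frames). The median was 11.1 for Ty2, 1.64 for Ty3 and 2.59 for Ty4. Of the 100-base words, the median share found nowhere else was 1.93% for Ty1, 7.61% for Ty2, 57.2% for Ty3 and 24.1% for Ty4. No 2 of the 45 frames were identical, but 10 had no 100-base word of their own. YER138C is one of these, and its row still held 140167 and 155496 normalized reads in scrambled A and B and 171175 and 181650 in +116 A and B. Any read of up to 100 bases in that row also fits another copy. Neither the read length nor the way such reads were shared out is known from the sources. The copies of a family are therefore not independent measurements. Ty1 and Ty2 also share words, and 14.6% to 17.8% of the 50-base words of a Ty2 frame occur in Ty1 frames. In the other direction the share reached 17.6%, for YDR098C-B, so these 2 families are not fully separate measurements either.

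Ty1 gag comes in more than one version. The next 60 bases (bases 1008 to 1067 of the frame, R64, both on the reverse strand, chromosomes I and XIV) are shown because they separate these versions best, with the 15 bases that differ from YAR010C in capitals.
YAR010C: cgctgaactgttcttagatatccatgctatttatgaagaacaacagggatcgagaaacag
YNL284C-B: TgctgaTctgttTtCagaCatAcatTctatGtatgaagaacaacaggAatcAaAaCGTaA
The first version was found in 28 of the Ty1 frames and the second in 3, YBL005W-B, YMR045C and YNL284C-B, while the other two frames hold no gag. The gag row YDR170W-A, which is not among the 45, also has the second version, and 70.8% of its 100-base words are its own.

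Rows of the Ty1 frames held a large share of the gene-assigned reads. The 45 frames together held 9.37% and 9.54% of all gene-assigned reads in scrambled A and B, and 10.5% and 11.1% in +116 A and B. Ty1 made up nearly all of this, with 8.75% and 8.93% in the scrambled libraries and 9.93% and 10.5% in the +116 libraries. Ty2 held 0.609% and 0.597% with the scrambled guide and 0.528% and 0.622% with +116. Both +116 libraries were above both scrambled libraries for Ty1, while the Ty2 shares of the groups overlapped. Of the 50 rows with the most normalized reads, 18 were Ty frames in each scrambled library and 19 in each +116 library. Whether a read that fits several copies was counted once or once per copy is not known. Counting it once per copy would raise these shares and ranks, so they need not be shares of the RNA.

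Levels were compared between frames as normalized reads per kilobase, averaged over the 4 libraries. For the 39 frames that contain a separate gag row on the same strand, only the length outside gag was used, a median of 3946 bp over all frames. This assumes that reads in the overlap were counted for neither row, which is not known from the sources. Per kilobase of the whole frame, Ty1 frames lay between 12183 and 33090 and Ty2 frames between 3035 and 6790. On the scale outside gag, the Ty1 frames had a median of 29330, from 15953 for the gag row YAR010C to 41779 for YPL257W-B. YPL257W-B was followed by YML039W at 41090 and YER138C at 41085. The 8 Ty2 frames lay between 4035 (YDR261W-B) and 9027 (YFL002W-A), with a median of 6967. The highest Ty2 frame was thus below the lowest Ty1 frame, and the same order held in each of the 4 libraries. Ty3 and Ty4 were lower still, at 405.8 for YGR109W-B, 264.8 for YHL009W-B and 188.9 for YJL113W. The mean number of genome copies of a 50-base word outside gag also fell from Ty1 to Ty2 to the other families. It was 16.0 to 25.6 for Ty1, 10.1 to 12.9 for Ty2, 1.64 to 1.66 for Ty3 and 2.46 to 2.74 for Ty4. The only Ty1 row with reads left out here, YDR170W-A, had 2.21 such copies and 518.7 reads per kilobase, below every Ty2 frame. Whether the family order holds for RNA per element was not tested.

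**Figure D1:**
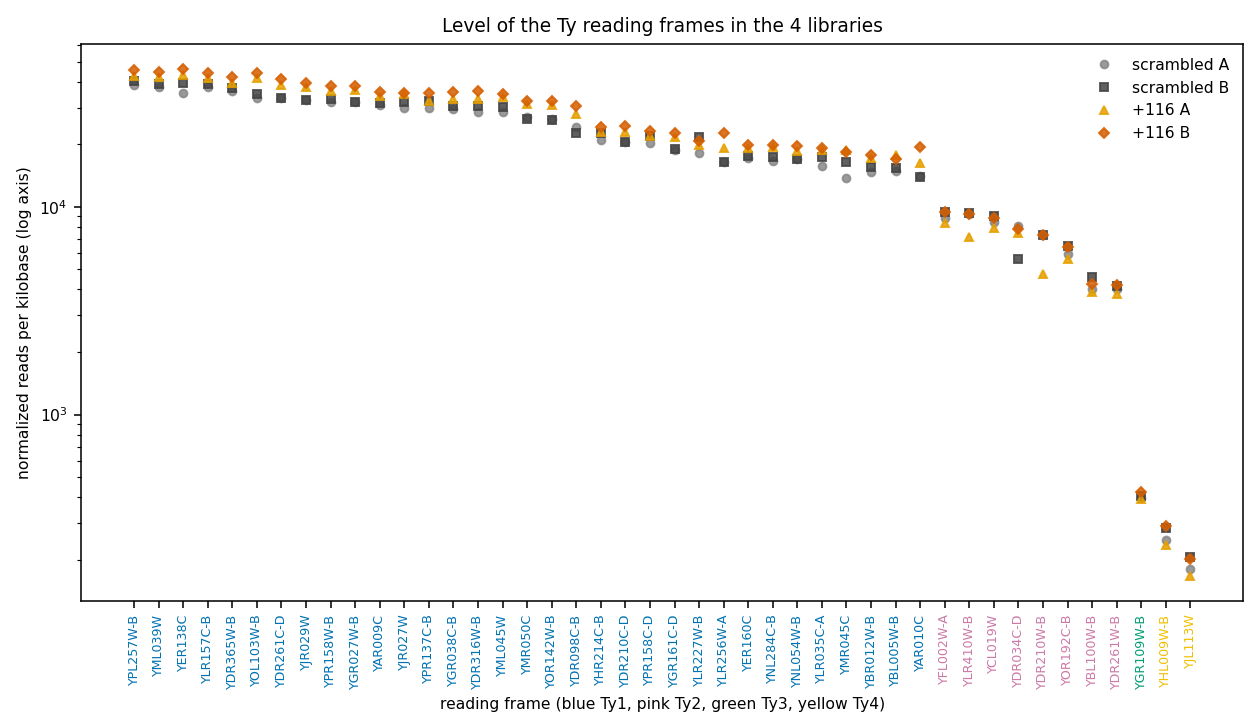
Normalized reads per kilobase (log axis) of 44 Ty reading frames in the 4 libraries, with gag left out of the length of frames that contain a gag row. Points are single libraries, circles and squares for scrambled A and B, triangles and diamonds for +116 A and B; Ty1 frames lie above the Ty2 frames, and those above Ty3 and Ty4.

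Within Ty1 and within Ty2, frames with more sequence in common with other copies tended to have higher levels. Over the 31 Ty1 frames that hold Pol, the level per kilobase and the mean number of genome copies of a 50-base word had a Spearman correlation of 0.83, and over the 8 Ty2 frames it was 0.929. Against the share of 100-base words found nowhere else the correlations were −0.615 and −0.762. These points share reads with each other and come from the same libraries, so the values are a description. The 26 joined Ty1 frames with the first gag version had a median of 32199 reads per kilobase outside gag (16321 to 41779). The 3 with the second version had 16267, 16862 and 18320.

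**Figure D2:**
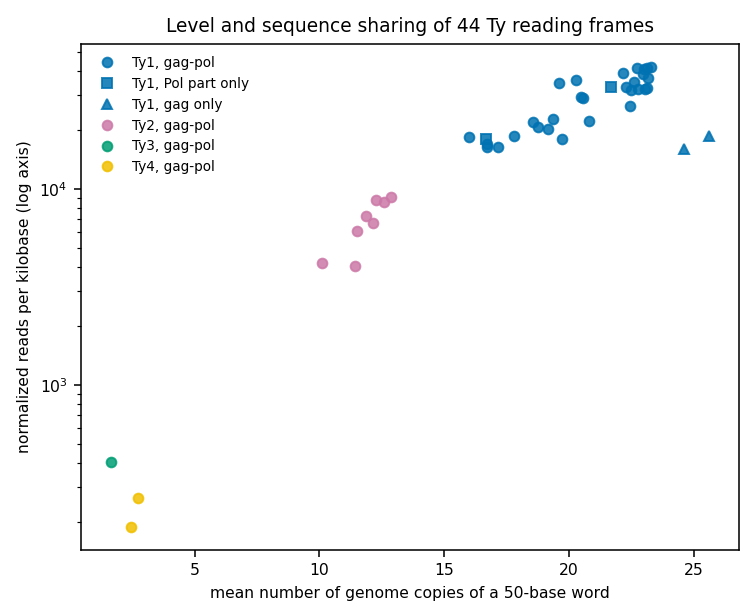
Mean normalized reads per kilobase (log axis) against the mean number of genome copies of a 50-base word, 1 point per reading frame (44 frames). The families form separate groups, and within Ty1 and Ty2 frames with more copies of their words lie higher.

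The gag rows show how far a level depends on the counting. Of 46 further rows annotated as Ty frames but not among the 45, 43 are gag rows, and 41 of these are listed at 0 in every library. They lie inside a gag-pol frame on the same strand. The remaining 2 had reads, YDR170W-A in Ty1 and YJL114W in Ty4, as did all 3 further gag-pol rows. YJL114W had 28.0 and 21.9 normalized reads in scrambled A and B and 27.0 and 34.2 in +116 A and B. Among the 45, YAR010C and YLR256W-A are gag rows that no longer frame contains, and they had reads in all 4 libraries. A value for gag can therefore be read from a few rows. For the other elements gag has no value of its own, and whether the joined rows hold reads from gag is not known.

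Ty3 and Ty4 gave the fewest reads of the 4 families. YGR109W-B, the Ty3 frame with reads, had 1496 and 1535 normalized reads in scrambled A and B and 1486 and 1605 in +116 A and B. The other Ty3 frame, YIL082W-A, is listed at 0 in all 4 libraries although 57.4% of its 100-base words are found nowhere else in R64. Table rows with neighbouring names, YIL080W and YIL082W, have no RefSeq entry in R64. YIL080W had 542 and 602 normalized reads with the scrambled guide and 513 and 479.7 with +116, while YIL082W is listed at 0. Whether these rows overlap YIL082W-A in the annotation used is not known. The 0 of YIL082W-A need therefore not mean that its element gave no RNA. The Ty4 frame YHL009W-B had 1037 and 1186 normalized reads with the scrambled guide and 983 and 1209 with +116. YJL113W, the other Ty4 frame, had 842 and 952 with the scrambled guide and 779 and 938 with +116. Both Ty4 frames were lower in library A than in library B of either guide.

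The libraries held 34215480 to 40628383 gene-assigned reads. GAL1, the galactokinase gene beside GAL10 on the strand of the noncoding RNA, had 411 and 469 normalized reads in the scrambled and 133 and 116 in the +116 libraries, so the 2 groups were set apart at the targeted locus. Markers of mating type were read because Ty1 transcription is known to be lower in a/alpha diploids. The 6 a-specific markers summed to 82631 to 85436 normalized reads over the 4 libraries and the 4 alpha-specific markers to 1719 to 1988. Of the alpha regulator rows, MATALPHA1 and HMLALPHA1 were at 0 in every library, while MATALPHA2 had 1335 and 1385 normalized reads with the scrambled guide and 1275 and 1147 with +116.

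With the +116 guide, the Ty1 frames had slightly higher values, and the means of most Ty2 frames were slightly lower. All 33 Ty1 frames had a positive log2 fold, from 0.03 to 0.35 with a median of 0.20, against a median of 0.0013 over the 6277 genes tested and 50.5% of them above 0. For Ty2, 1 of 8 frames was above 0, and the median was −0.05 (−0.31 to 0.18). The +116 libraries differed here: relative to the scrambled mean, the Ty2 median was −0.14 in +116 A and 0.03 in +116 B. With a trend of fold on gene length removed, the Ty1 median was 0.07 with 29 of 33 frames above 0, and none of the calls that follow passed the threshold. The test called 4 frames higher with +116, all of them Ty1, and none lower, of 44 tested members. Folds are on the scale of log2(value + 1). They come from a limma fit over all genes with a mean of at least 5, two-sided, with Benjamini-Hochberg adjustment over all 6277 and a threshold of 0.05. The same fit called 0.51% of all tested genes higher and 0.335% lower, 0.844% in all. At an unadjusted p under 0.05, 29 of 33 Ty1 frames were higher and 2 of 8 Ty2 frames lower, against 11.5% of all tested genes higher and 10.3% lower. Of the Ty frames, edgeR called 13 and DESeq2 25 Ty1 frames higher and no Ty frame lower. Over all 6277 tested genes, edgeR called 106 higher and 60 lower, and DESeq2 100 higher and 80 lower. Because copies share reads, the 4 called rows are not 4 separate observations. RNA from whole cultures cannot tell more cells of a kind from more RNA per cell.

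**Figure D3:**
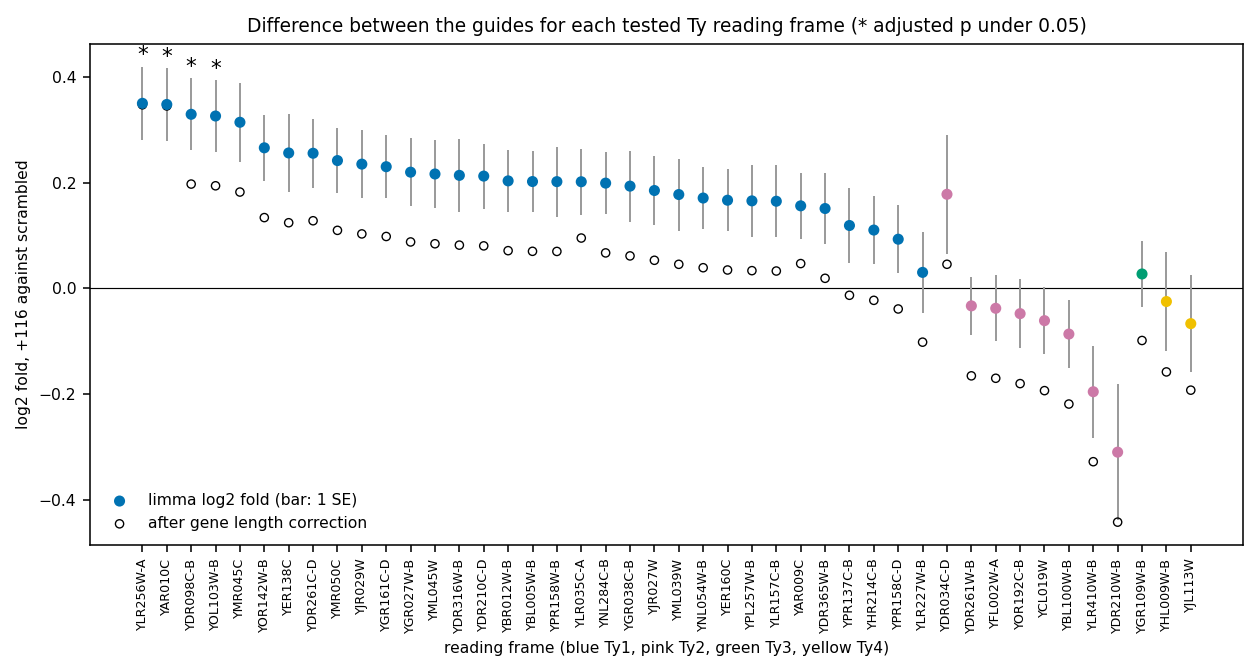
Log2 fold of each of the 44 tested Ty frames, +116 against scrambled (2 libraries each), with 1 standard error as a bar and stars at an adjusted p under 0.05; open circles are the folds after removal of a gene length trend. All 33 Ty1 frames lie above 0 before the correction, 29 after it.

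The gag rows had the largest folds. YAR010C, the gag frame of the element YARCTy1-1, had 18579 and 18485 normalized reads in scrambled A and B and 21600 and 25760 in +116 A and B. Both +116 libraries were above both scrambled libraries, and the scrambled values differed from each other far less than the +116 values. It rose 1.28-fold, a log2 fold of 0.35 with a standard error (SE) of 0.0689 (limma adjusted p = 0.0413). YLR256W-A, the gag row of YLRWTy1-3, had 21666, 21655, 25277 and 30164 in the same order. Its order of libraries was that of YAR010C, and it rose by a log2 fold of 0.35 (SE 0.0694, limma adjusted p = 0.0413). All 50-base words of YAR010C occur in another of the 45 frames, YPR137C-B, and 97.5% of those of YLR256W-A occur in YPL257W-B, so these 2 rows need not report on their own loci. The more distinct gag row YDR170W-A had 612 and 597 normalized reads with the scrambled guide and 733 and 803 with +116. Its log2 fold of 0.34 (SE 0.0774) was close to theirs, with a limma adjusted p of 0.0549 that misses the threshold.

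Frames of the Pol part alone had smaller folds than these gag rows, near the median of 0.20 over all Ty1 frames. YAR009C is the truncated pol frame of the same element as YAR010C. It had 111231 and 113548 normalized reads with the scrambled guide and 122764 and 127763 with +116, again without overlap of the groups, and a log2 fold of 0.16 (SE 0.0629, limma adjusted p = 0.18). YLR035C-A had 54596, 60391, 65360 and 66732, a log2 fold of 0.20 (SE 0.062, limma adjusted p = 0.103). Per kilobase, the ratio of YAR010C to YAR009C was 0.453 and 0.442 in scrambled A and B and 0.478 and 0.547 in +116 A and B. The ratio was higher in both +116 libraries, most of all in +116 B, and its difference was not tested.

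**Figure D4:**
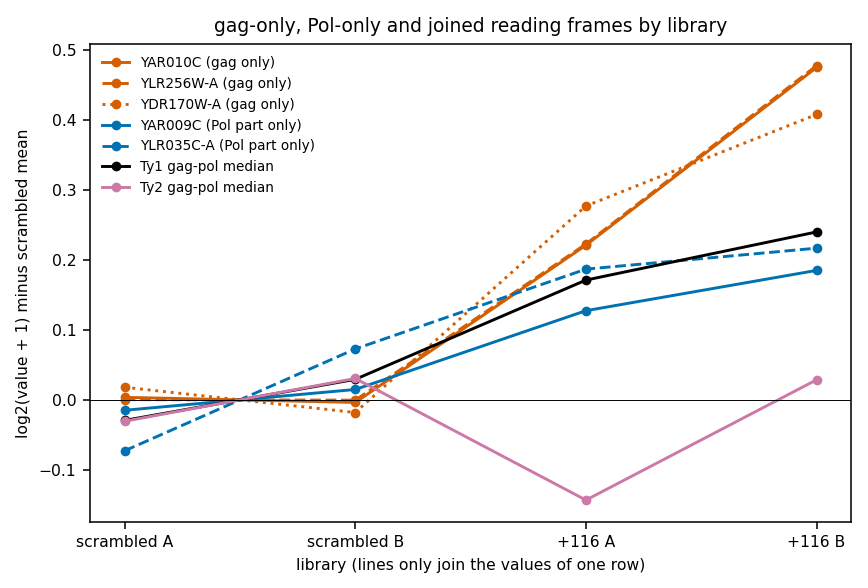
Log2(value + 1) of gag rows, Pol rows and the medians of joined Ty1 (29) and Ty2 (8) frames in each library, minus the mean of the scrambled libraries; lines only join the values of a row. In +116 B the gag rows lie between 0.41 and 0.48 and the joined Ty1 frames at a median of 0.24.

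The other two called frames join gag and pol. YDR098C-B had 95682 and 89085 normalized reads in scrambled A and B and 110970 and 121278 in +116 A and B. It rose by a log2 fold of 0.33 (SE 0.0679, limma adjusted p = 0.0477). YOL103W-B had 132046, 137632, 164043 and 174134 in the same order, and rose by a log2 fold of 0.33 (SE 0.0677, limma adjusted p = 0.0477). In both, the +116 libraries were clear of the scrambled ones. These frames and the 2 gag rows were past the threshold in 10 or 11 of 17 other settings each. With either scrambled library left out no Ty frame was called, although their log2 folds were then 0.28 to 0.38 (limma adjusted p = 0.1535 to 0.6609).

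The remaining 29 Ty1 frames missed the threshold, with log2 folds from 0.03 to 0.31. YOR142W-B came nearest to it, at a log2 fold of 0.27 (limma adjusted p = 0.0549), with 104177 and 102915 normalized reads in the scrambled and 122006 and 127066 in the +116 libraries. YMR045C, with the second gag version, had a log2 fold of 0.31 (adjusted p = 0.0559 in limma), with 54220 and 64660 normalized reads in the scrambled and 74444 and 72819 in the +116 libraries. In 30 of the 33 Ty1 frames both +116 libraries were above both scrambled libraries, against 27.3% of all tested genes. The exceptions were YLR227W-B, YPR137C-B and YPR158C-D. YLR227W-B had 71419 and 85588 normalized reads with the scrambled guide and 78180 and 81544 with +116, so that scrambled B was the highest library (log2 fold 0.03). YPR158C-D had 80171, 86825, 86334 and 91737, with +116 A just below scrambled B (log2 fold 0.09). YPR137C-B had 118384, 128282, 127931 and 140009, with the same overlap (log2 fold 0.12).

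YPL257W-B, YML039W and YER138C, the Ty1 frames with the most normalized reads, were not among the called ones. The called frame YOL103W-B was abundant too, with a mean of 151964 over the 4 libraries against 164861 for YPL257W-B. YPL257W-B had 152300 and 158477 normalized reads in scrambled A and B and 169256 and 179410 in +116 A and B, a log2 fold of 0.17 (SE 0.0686, limma adjusted p = 0.19). YML039W had 149355, 154950, 167302 and 176953, a log2 fold of 0.18 (SE 0.0681, limma adjusted p = 0.164). For YER138C the log2 fold was 0.26 (adjusted p = 0.0906 in limma). Compared library by library, 33 of 33 Ty1 frames were higher in +116 A than in scrambled A and 33 in +116 B than in scrambled A. Against scrambled B, 30 were higher in +116 A and 32 in +116 B, with median log2 differences of 0.14 and 0.20. The weakest of the 4 contrasts for Ty1 was thus scrambled B with +116 A. Of the 8 Ty2 frames, 0 were higher in +116 A than in scrambled A and 1 than in scrambled B. In +116 B, 6 were higher than in scrambled A and 3 than in scrambled B. Shares over all genes were not taken for these single contrasts.

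No Ty2 frame passed the test, and single libraries decided the largest Ty2 folds. YDR210W-B had 29219 and 29395 normalized reads in scrambled A and B and 19088 and 29285 in +116 A and B. Only +116 A was low, and the log2 fold of −0.31 (SE 0.129, limma adjusted p = 0.19) rests on it, being −0.0011 without that library. YLR410W-B had 37063, 37487, 28677 and 36949, with +116 A again low and a log2 fold of −0.20 (SE 0.0868, limma adjusted p = 0.214), and −0.01 without +116 A. It was the 1 Ty2 frame in which the groups did not overlap, in the direction seen in 26.3% of tested genes. YDR034C-D had 32294, 22499, 29807 and 31203, so here scrambled B was the low library, and its log2 fold of 0.18 (SE 0.113, limma adjusted p = 0.379) became −0.08 without it.

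These 3 frames varied within a group more than most genes. Library B over library A differed by a log2 of −0.52 in the scrambled group for YDR034C-D and by 0.62 in the +116 group for YDR210W-B. The size of this difference had a median of 0.0716 and 0.068 over all tested genes in the scrambled and +116 groups, and a 95th percentile of 0.434 and 0.414. YLR410W-B lay inside that range at 0.37. In the other 5 Ty2 frames no library stood apart to a like degree. YFL002W-A had 35504, 37552, 33524 and 37750 normalized reads in scrambled A, scrambled B, +116 A and +116 B, and YCL019W had 33708, 36153, 31632 and 35402. YDR261W-B had 16068, 16536, 15175 and 16726, YOR192C-B had 23785, 25856, 22440 and 25651, and YBL100W-B had 16143, 18366, 15480 and 16992. In each of these 5 frames +116 A was the lowest library, and their log2 folds ran from −0.09 to −0.03.

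**Figure D5:**
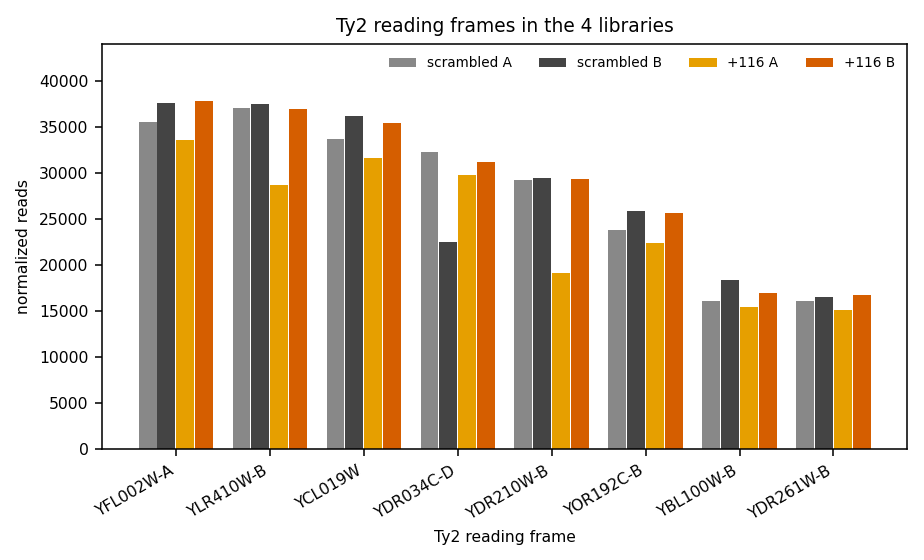
Normalized reads of the 8 Ty2 reading frames, 1 bar per library. Scrambled B is low in YDR034C-D and +116 A in YDR210W-B and YLR410W-B, while the bars of the other 5 frames are of like height.

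Side by side, the ratio of summed Ty1 to summed Ty2 normalized reads was 14.4 and 15.0 in scrambled A and B and 18.8 and 16.9 in +116 A and B. The ratio was higher in both +116 libraries, and this difference was not tested. Because Ty1 and Ty2 frames have some words in common, the sums are not fully separate. The median Ty2 fold was 0.03 without +116 A, against −0.05 with all libraries, while the Ty1 median stayed between 0.17 and 0.24 with any 1 library left out. The Ty3 frame with reads, YGR109W-B, stood at a log2 fold of 0.03 (adjusted p = 0.832 in limma). The Ty4 frames YHL009W-B and YJL113W had log2 folds of −0.02 (limma adjusted p = 0.901) and −0.07 (limma adjusted p = 0.702), and their groups overlapped. No Ty2, Ty3 or Ty4 frame was called by edgeR or DESeq2 either.

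Long genes as a whole had higher folds with +116, and most Ty1 frames are long. Over 5896 tested genes with a length in R64, the log2 fold rose by 0.0567 per doubling of length, with a Spearman correlation of 0.546 taken across genes, which cannot count as independent replicates. A smooth of this trend stood at 0.132 at 5269 bp, the usual Ty1 gag-pol length, and at 0.0049 at 1323 bp, that of the gag rows. With the trend removed per library, the Ty2 median was −0.19 and the median over all genes 0.0021, beside 0.07 for Ty1. No Ty frame was then called by limma, with 7 higher and 7 lower at an unadjusted p under 0.05, against 434 and 386 of the 5896 genes. YAR010C kept a log2 fold of 0.35 and YLR256W-A of 0.35 (limma adjusted p = 0.215 for both), while YDR098C-B and YOL103W-B had 0.20 and 0.19. The correction used the length of the row and not of the RNA, so it could hardly change the folds of the gag rows. A correction by the length of the element's RNA was not made. What the length trend comes from was not tested.

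Genes known to act on Ty elements were read from the same fit, and limma called no tested gene of the 6 lists. Counts at an unadjusted p under 0.05 are to be read against the 11.5% of all tested genes that were higher and the 10.3% that were lower at that p. The Ty1 transcription activators hold DNA-binding factors and subunits of the SAGA and SWI/SNF complexes. Of 21 tested, 15 were above 0 with a median of 0.04, and 5 were higher and 2 lower at an unadjusted p under 0.05. Lowest in p were SNF5 of SWI/SNF (log2 fold 0.18), SPT15, the TATA-binding protein (−0.13), and the cell cycle factor SWI4 (0.15). Of 19 repressors and chromatin factors, 12 were above 0 (median 0.05), with 4 higher and 1 lower at an unadjusted p under 0.05. TUP1, a general corepressor, had 8805 and 7395 normalized reads with the scrambled guide and 9540 and 9973 with +116. Its groups did not overlap, its log2 fold was 0.27 (limma adjusted p = 0.0659), and it was called by edgeR and by DESeq2. SPT6, a histone chaperone, had a log2 fold of 0.18, and CAC3, a chromatin assembly factor subunit, −0.19.

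Of the 18 tested factors of Ty RNA turnover and Gag assembly, 7 were above 0 (median −0.05), with 4 higher and 2 lower at an unadjusted p under 0.05, against 11.5% and 10.3% of all tested genes. DHH1, a helicase of cytoplasmic RNA granules, had 2553, 2200, 2706 and 3045 normalized reads in scrambled A, scrambled B, +116 A and +116 B. Its log2 fold was 0.28 (limma adjusted p = 0.0784), and it too was called by edgeR and DESeq2. LSM1, which promotes decapping, had −0.15 and the decapping enzyme gene DCP2 had 0.15. Of 14 RNA polymerase III subunits and cofactors of integration, 8 were above 0 (median 0.02), 2 higher and 1 lower at an unadjusted p under 0.05. The lowest in p were the polymerase subunit gene RPC34 (−0.16) and the TFIIIC subunit genes TFC4 (0.15) and TFC3 (0.13).

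Of 32 restriction factors of Ty1 transposition, 19 were above 0 (median 0.04), 2 were higher and none lower at an unadjusted p under 0.05, against 11.5% and 10.3% of all tested genes, and neither edgeR nor DESeq2 called any. MMS1, of a ubiquitin ligase complex, had a log2 fold of 0.15, and RAD6, a ubiquitin-conjugating enzyme, −0.13. Of 18 mating type markers and related regulators 16 could be tested and 4 were above 0 (median −0.05), with 1 higher and 3 lower at that p, the 3 being MFA1, MFALPHA1 and MATALPHA2 (log2 fold −0.17). The a-factor gene MFA1 stood at −0.22 (adjusted p = 0.0705 in limma) and was called lower by DESeq2 alone, the a-factor exporter gene STE6 had 0.18, and MFALPHA1, for the alpha pheromone, −0.72 at 29.2 to 49.7 normalized reads. Apart from TUP1, DHH1 and MFA1, no gene of the 6 lists was called by edgeR, or by DESeq2 where it gave an adjusted p.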

How the data were processed

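The authors deposited 1 table of normalized read counts, a signal that is never negative, with 1 column per library; no column was left unused. The values were tested to be whole multiples of 1 step per column (100% of values, tolerance 1e-06 of a read), which are gene counts that the authors divided by a size factor, from 0.913 to 1.11. The submitters' processing notes name, without roles, DESeq2, Picard 1.84, the aligners Bowtie2, TopHat and TopHat2 2.0.8, and also Trimmomatic 0.30 and bcl2fastq 1.8.4. Neither the genome build nor the annotation, read counter or strand setting is known from the sources, and no coordinates are printed.

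Genes with a mean of at least 5 entered limma 3.58.1 (R 4.3.3) on log2(value + 1), with a trend of variance on mean; this scale understates the change of low genes. On simulated data the fit recovered 93.5% of 200 genes changed by a log2 fold of 1 among 6277, with 8.33% false calls. All genes were simulated with 1 fixed dispersion. Folds as small as those of the Ty frames were not simulated, so the share recovered does not apply to them. edgeR 4.0.16 and DESeq2 1.42.0 on the recovered whole reads were 2 of 17 alternatives, and called 106 higher and 60 lower, and 100 higher and 80 lower genes. Families, lengths, words and sequences come from RefSeq R64. The members and the gene lists were chosen with earlier results of these data known. Members named are those called, in each family the 3 highest per kilobase of the whole frame and the 2 highest and 2 lowest folds, both YAR frames, and all of Ty3 and Ty4; from each list, the 3 lowest p, of which 1 gene is not reported here. YER138C, YLR035C-A, YOR142W-B, YMR045C, YPR137C-B, the other frames with the second gag version, YDR170W-A, MATALPHA2 and the remaining Ty2 frames were added after their values were seen.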

Additional observations from a re-analysis of the deposited data

How the results depend on the processing

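The p-values rest on 2 libraries per group, and copies share reads, so depth is not what limits the Ty1 and Ty2 values. Against 4 Ty frames called higher, edgeR called 13, DESeq2 25, robust empirical Bayes 22 and a replicate block 7. Without a filter on low values, without a trend, with the length correction and with length and GC correction limma called 0 (28, 28, 7 and 8 higher at an unadjusted p under 0.05). Leaving out 1 library gave 0 to 11 higher and 0 to 2 lower; 0 higher came without either scrambled library (12 and 18 higher at an unadjusted p under 0.05). The letters A and B were not shown to pair the libraries (correlation of deviations −0.0413 over 6277 genes), and with them as a replicate block 7 Ty frames were called higher and 1 lower, and 170 and 88 genes in all, against 4 and 0, and 32 and 21.

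Over all genes, higher and lower calls numbered 106 and 60 in edgeR, 100 and 80 in DESeq2, 2 and 5 without a filter, 64 and 44 at a mean of at least 20, 73 and 76 with upper-quartile scaling and 51 and 37 with TMM. They were 0 and 1 without a trend, 245 and 165 with robust empirical Bayes, 0 and 1 with the length correction and 0 and 1 with length and GC (427, 434 and 395 higher at an unadjusted p under 0.05). With 1 library left out they ran from 0 to 207 and from 0 to 104, with 0 and 0 without either scrambled library (745 and 257 higher at an unadjusted p under 0.05). The cause of these shifts was not tested. The median log2 fold of all Ty frames was 0.0501 with the length correction and 0.0652 with length and GC. For Ty1 these were 0.0714 and 0.0813, and for Ty2 −0.187 and −0.169. Without +116 A the Ty2 median changed sign to 0.0287, within a leave-one-out range of −0.143 to 0.0287.

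Of 306 values for the 18 named frames, 259 kept direction and call, 25 lost the call, 4 gained one and 18 changed sign. Length and length with GC correction turned YGR109W-B (−0.0985, −0.106), YLR227W-B (−0.102, −0.0939) and YPR158C-D (−0.0389, −0.0305). With 1 library left out, the ends of the range were −0.142 and 0.0202 for YCL019W, −0.0826 and 0.439 for YDR034C-D, −0.123 and 0.048 for YFL002W-A and −0.0283 and 0.083 for YGR109W-B. They were −0.174 and 0.124 for YHL009W-B, −0.201 and 0.0675 for YJL113W, −0.10 and 0.161 for YLR227W-B and 0.0372 at the upper end for YDR261W-B. These sign changes came without scrambled A (YLR227W-B), scrambled B (YDR034C-D, YFL002W-A, YHL009W-B, YJL113W), +116 A (YFL002W-A, YHL009W-B, YJL113W, YCL019W, YDR261W-B) or +116 B (YGR109W-B, YLR227W-B).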
